A study of Homo sapiens with 12 samples.

Results

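The 4 microRNAs (miRNAs) encoded by clustered hairpins of the X chromosome, hsa-miR-374a, hsa-miR-374b, hsa-miR-421 and hsa-miR-545, were followed through osteogenic culture of osteosarcoma cells. They were chosen by name, 4 of the 851 human miRNA names on the array, and were chosen for the lower detection of hsa-miR-374b in CD99-transfected cells. The difference between the cell types is therefore described without a test. The arrays were 12 one-colour Agilent human miRNA arrays, 2 for each of 6 groups. The parental group was Saos-2, an osteosarcoma line, with replicates 1 and 2. The other group, Sa/CD99, was Saos-2 stably transfected with CD99, a cell surface molecule of osteoblasts, by calcium phosphate and selected in neomycin. Its arrays came from clones wt22 and wt36, each a single clone, so that clone and transfection cannot be told apart. Both cell types carried RNA of days 0, 7 and 14 of osteogenic medium, and no source used here says that replicates were separate cultures. p-values therefore measure the spread between these samples, pooled over the groups. In Sa/CD99 that spread is between clones, and in Saos-2 it may be technical.

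A miRNA is cut from a hairpin in a longer transcript, and either arm of the hairpin can be loaded into the silencing complex. The seed, bases 2 to 8 of the mature RNA, pairs with target mRNAs, and their translation or stability falls. hsa-miR-374a and hsa-miR-374b are paralogs of 1 family with closely similar mature sequences. hsa-miR-421 and hsa-miR-545 belong to other families and lie in the cluster as neighbours of the miR-374 hairpins. All of these hairpins are hosted by FTX, a long noncoding RNA gene of the X inactivation centre.

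In RefSeq (GRCh38.p14) the 4 hairpins lay inside the span of FTX, at chrX:74028136-74293574. They formed neighbouring pairs, each with a miR-374 hairpin beside an unrelated one. MIR421 at chrX:74218377-74218461 and MIR374B at chrX:74218547-74218618 were 85 bases apart. MIR545 at chrX:74287104-74287209 and MIR374A at chrX:74287286-74287357 were 76 bases apart. Between the pairs lay 68485 bases. The annotation table used here does not say whether a hairpin is in an exon or an intron of FTX.

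The mature sequences of hsa-miR-374b, hsa-miR-421 and hsa-miR-545, and of the star arm of each miR-374 hairpin, are shown because the array reads each of them separately. They are RefSeq sequences of the minus strand, 5′ to 3′, with the seed in capitals.
hsa-miR-374b (hsa-miR-374b-5p, chrX:74218587-74218608): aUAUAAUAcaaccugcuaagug
hsa-miR-421 (chrX:74218392-74218414): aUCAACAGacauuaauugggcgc
hsa-miR-545 (hsa-miR-545-3p, chrX:74287126-74287147): uCAGCAAAcauuuauugugugc
hsa-miR-374a* (hsa-miR-374a-3p, chrX:74287295-74287316): cUUAUCAGauuguauuguaauu
hsa-miR-374b* (hsa-miR-374b-3p, chrX:74218557-74218578): cUUAGCAGguuguauuaucauu
The other arm of MIR374A is the member hsa-miR-374a (hsa-miR-374a-5p). The star arms of the paralogs were the same at 18 of 22 positions. G and C made up 31.8% of hsa-miR-374b, 43.5% of hsa-miR-421 and 36.4% of hsa-miR-545.

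The table and the scanner files give the same arrays to different samples, which bears on every value below. Each column of the deposited log2 table had the same pattern of detected miRNAs as 1 scanner array over all 847 names they share. In 0 of 12 columns was that array filed under the same sample. The array was filed under the other cell type for 8 columns and under another day for 8. The values here follow the column titles of the table, as the choice of the members did. Values of the arrays as filed are given for the differences between the cell types of hsa-miR-374a and hsa-miR-374b over all days. Comparisons of the cell types at a single day, and correlations or changes within a cell type, follow the titles alone. By these titles the summed signal of all miRNAs ran from 8594 to 11371 intensity units at day 0 and from 25232 to 62236 at days 7 and 14. Columns held 133 to 214 detected miRNAs in Sa/CD99 and 137 to 229 in Saos-2. Of the 7 mesenchymal marker miRNAs, hsa-miR-199a-3p, hsa-miR-214, hsa-miR-145, hsa-miR-21 and hsa-miR-29a were detected in all 12 columns, and hsa-miR-143 and hsa-miR-218 in 0. The 5 blood, 4 epithelial, 1 liver and 1 muscle markers were undetected throughout. Of the 2 neuronal markers hsa-miR-124 was undetected and hsa-miR-128 was detected in 6 columns, 2 of them Sa/CD99. CD99 itself cannot be checked on a miRNA array.

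In the table, hsa-miR-374b was detected in 5 of 6 Saos-2 columns and in 1 of 6 Sa/CD99 columns. Undetected miRNAs stand at the lowest value of their column, between -3.32 and -3.004 on the log2 scale. At day 0 the log2 value of hsa-miR-374b was 2.77 and 3.16 in Saos-2, and both Sa/CD99 columns were at their floor, -3.004 and -3.029. At day 7 it was undetected in Saos-2 replicate 1 (-3.16) and stood at -0.14 in replicate 2, with both Sa/CD99 columns undetected. At day 14 it was -0.71 and 2.81 in Saos-2, undetected in clone 22 and -2.19 in clone 36. The groups were apart at days 0 and 14 and overlapped at day 7 in the sense that a column of each cell type was undetected. At days 0 and 14 the cell types shared a slide. At day 7 Saos-2 lay on slide 1 and Sa/CD99 on slide 2, so cell type and slide cannot be told apart there. Over all days, with the slides unequally shared between the cell types, the mean of hsa-miR-374b was 0.79 ± 2.54 (SD, n = 6) in Saos-2 and -2.99 ± 0.41 (SD, n = 6) in Sa/CD99, a difference of -3.78. In such bulk RNA, fewer cells with the miRNA and less of it per cell cannot be told apart. On the arrays as filed hsa-miR-374b was detected in 3 of 6 arrays of each cell type, and the difference was 0.23.

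**Figure D1:**
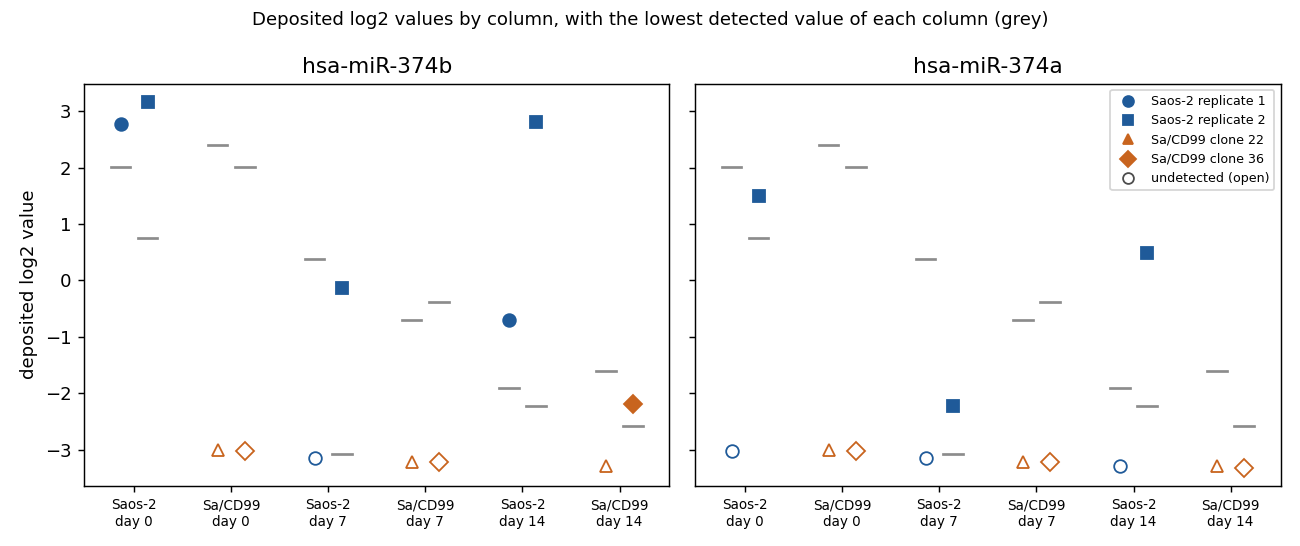
Deposited log2 values (vertical axis) of hsa-miR-374b (left) and hsa-miR-374a (right) in the 12 columns by group, filled where detected and open at the column's floor; grey bars mark the lowest detected value of each column. hsa-miR-374b is filled in 5 Saos-2 columns and 1 Sa/CD99 column, hsa-miR-374a in 3 columns, all Saos-2 replicate 2.

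The size of this log2 gap depends on the floor. In the Sa/CD99 day 0 columns the lowest detected miRNA stood at 2.39 and 2.004, more than 5 log2 units above the floor. Set against that limit, hsa-miR-374b was 1.70-fold higher in Saos-2 at day 0, which is no strict bound, because detection is decided per probe and an undetected signal can exceed a detected one. The summed probe signals described below differed by 1.53-fold at day 0. The table means, 2.97 in Saos-2 and -3.02 in Sa/CD99, give 63.3-fold with the floor taken as a level. After the scanner arrays were given the samples of their matching columns and normalized from their spots, with no floor, the day 0 means were 2.31 and 1.504 on that log2 scale. These differ by 1.74-fold. Over all days the difference on these matched arrays was -0.63, from 1.95 ± 0.60 (SD, n = 6) in Saos-2 to 1.32 ± 0.41 (SD, n = 6) in Sa/CD99. At day 7, where the cell types lay on different slides, the means on this scale were 1.44 ± 0.10 (SD, n = 2) in Saos-2 and 1.36 ± 0.27 (SD, n = 2) in Sa/CD99, which overlapped. At day 14 they were 2.09 ± 0.58 (SD, n = 2) and 1.10 ± 0.12 (SD, n = 2).

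The scanner files show what lies under the floor. Each of the miR-374 paralogs has 2 probes of 8 spots, and the software counts a probe only where its signal is over 3 times its error. With this rule the detection call was recovered for 10212 of 10212 pairs of array and miRNA. The sum of the 2 probe signals of hsa-miR-374b, before any floor, was above 0 on every array, from 2.74 to 17.3 intensity units. On the arrays of the Saos-2 columns it was 4.89 ± 1.28 and 6.11 ± 1.24 at day 0 (signal ± scanner error). It was 4.26 ± 1.17 and 7.60 ± 1.27 at day 7, and 5.17 ± 1.12 and 17.3 ± 1.83 at day 14. On those of the Sa/CD99 columns it was 3.14 ± 1.15 and 4.06 ± 1.26 at day 0, 4.98 ± 1.33 and 3.93 ± 1.33 at day 7, and 2.74 ± 1.18 and 4.62 ± 1.20 at day 14. The cell types overlapped: the highest Sa/CD99 value, 4.98, was above the values of Saos-2 replicate 1 at days 0 and 7. Saos-2 replicate 2 was the highest at each day, and its day 14 array stood apart from all others. The mean was 7.55 ± 4.89 (SD, n = 6) in Saos-2 and 3.91 ± 0.85 (SD, n = 6) in Sa/CD99. Without the Saos-2 day 14 replicate 2 array, left out after its value was seen, the Saos-2 mean was 5.60 ± 1.30 (SD, n = 5). As filed the means were 6.45 ± 5.36 and 5.01 ± 1.60 (SD, n = 6 each).

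**Figure D2:**
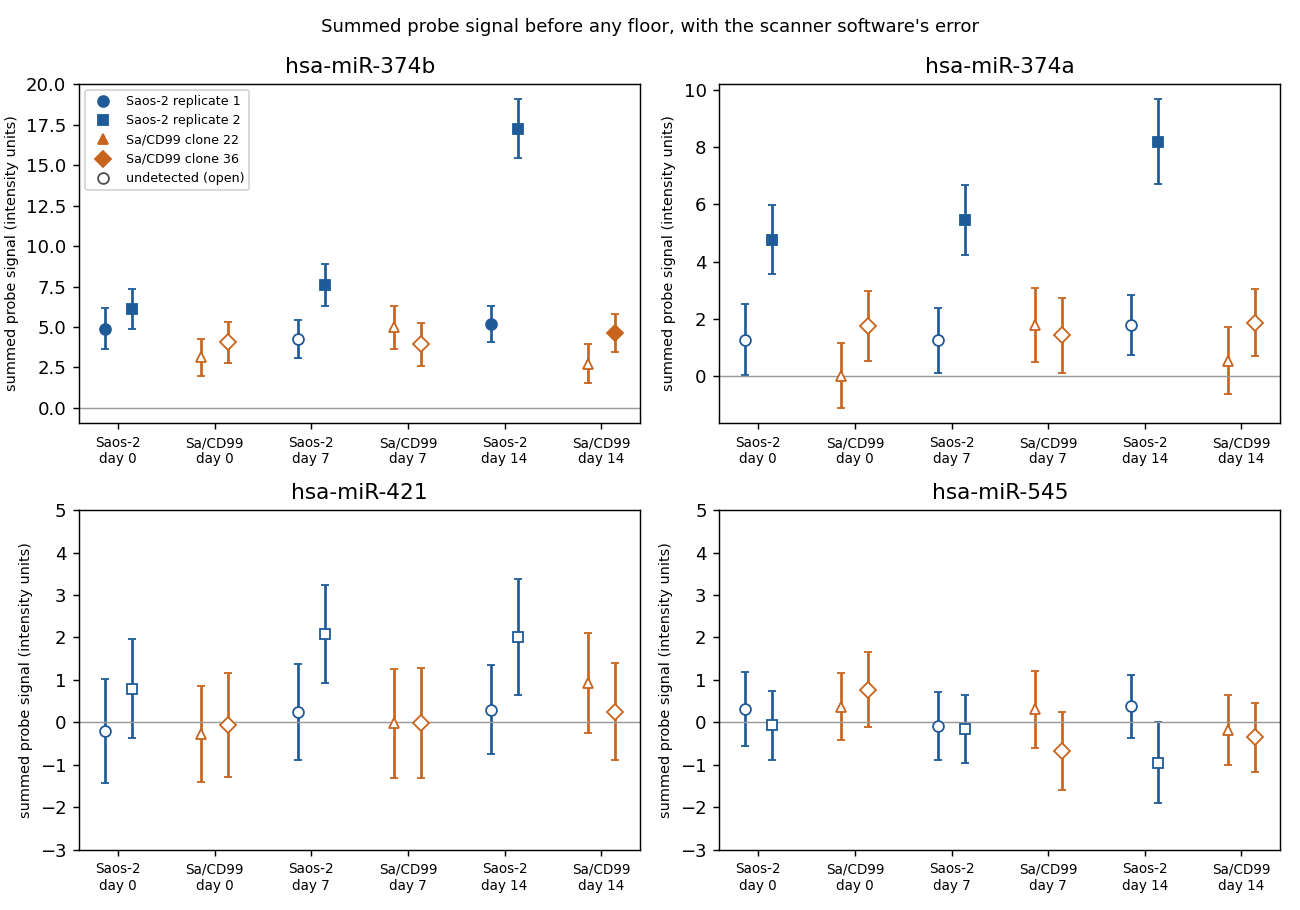
Summed probe signal in intensity units (vertical axes differ between the upper panels) of the 4 members on the 12 arrays, by the group of the matching column; bars are the scanner software's error and open points are undetected miRNAs. hsa-miR-374b lies above 0 on every array, from 2.74 to 17.3, whereas hsa-miR-421 and hsa-miR-545 scatter about 0.

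On the 6 undetected arrays of hsa-miR-374b the higher of the 2 probe ratios ran from 1.79 to 2.99, with a median of 2.41, against the limit of 3. Just inside it was probe 2 on the array of Saos-2 day 0 replicate 1, with a signal of 2.82 and an error of 0.92, a ratio of 3.08. Just outside was probe 2 on that of Sa/CD99 day 7 clone 22, with a signal of 2.84 and an error of 0.95, a ratio of 2.99. The table gives these columns 2.77 and -3.23. The median ratio over the 12 arrays was 2.32 for probe 1 and 3.03 for probe 2. The probes read alike, with a largest gap between them of 0.67 of the combined error. Of the 192 spots of hsa-miR-374b, 183 were positive and significant by the software, 94 of 96 in Saos-2 and 89 of 96 in Sa/CD99. Well above background were 33, of which 32 were in Saos-2 and 16 on the array of Saos-2 day 14 replicate 2. As filed 19 of these were in Saos-2 and 14 in Sa/CD99, with 92 and 91 positive and significant.

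**Figure D3:**
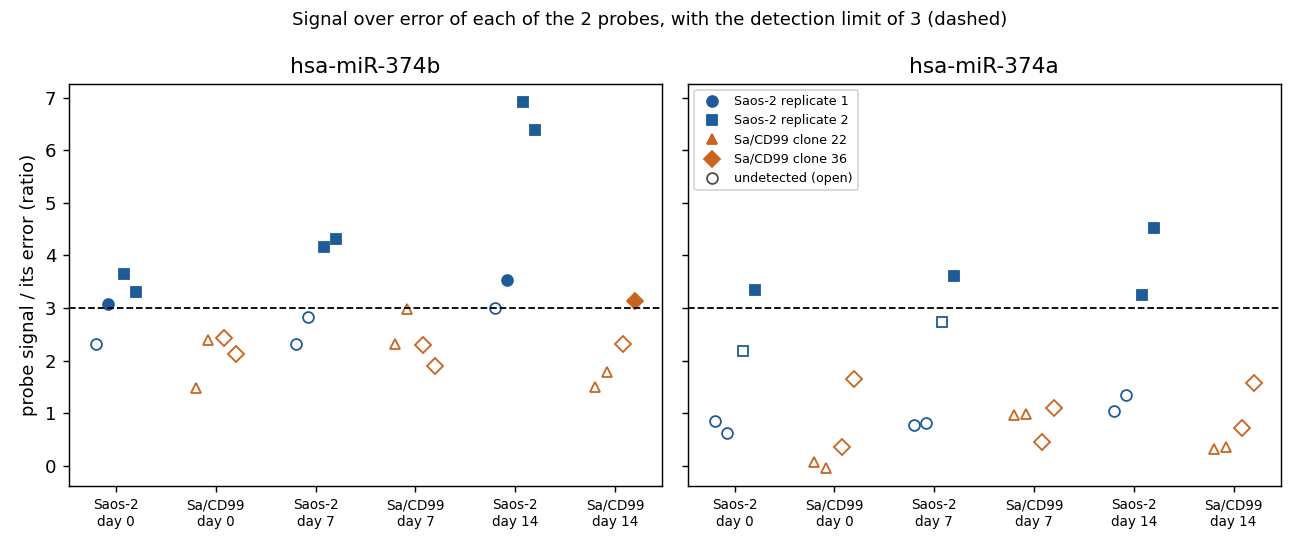
Ratio of probe signal to its error (vertical axis) for the 2 probes of hsa-miR-374b (left) and hsa-miR-374a (right) on each of the 12 arrays by group; filled probes exceed the limit of 3 (dashed line) and are counted. Most hsa-miR-374b probes lie between 1.48 and 4.31, on both sides of the limit, and those of Saos-2 day 14 replicate 2 reach 6.92.

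hsa-miR-374a, the paralog, was detected in 3 of 6 Saos-2 columns and 0 of 6 Sa/CD99 columns. All 3 were Saos-2 replicate 2, with log2 values of 1.49 at day 0, -2.22 at day 7 and 0.49 at day 14. Replicate 1 was at its floor at each day, so detection separated the Saos-2 replicates rather than the days. The mean over all days was -1.62 in Saos-2 and -3.18 in Sa/CD99, a difference of -1.56 on the log2 scale. Without Saos-2 day 0 replicate 2 it was -0.94, and it ran to -1.89 with other single columns left out. On the matched arrays the difference was -0.41, on their gene signals scaled by the 75th percentile -2.47, and on the arrays as filed -0.03. Undetected miRNAs have a gene signal of 0.1, so the scaled gene signals carry a floor too. As filed hsa-miR-374a was detected on 2 Sa/CD99 arrays and 1 Saos-2 array. Another 7 miRNAs had the same pattern of detection over the 12 columns, hsa-miR-130a, hsa-miR-15a, hsa-miR-181a*, hsa-miR-30e, hsa-miR-31*, hsa-miR-324-5p and hsa-miR-769-5p. None had that of hsa-miR-374b. In Saos-2 replicate 2 there were 158, 229 and 209 detected miRNAs at days 0, 7 and 14, against 137, 158 and 197 in replicate 1; the part of this in the values of either paralog was not tested.

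The summed probe signal of hsa-miR-374a was 4.77, 5.45 and 8.18 on the arrays of Saos-2 replicate 2 at days 0, 7 and 14. Replicate 1 gave 1.28, 1.26 and 1.79. Sa/CD99 lay between 0.02 and 1.88, with a median of 1.59, and overlapped replicate 1. The scanner error of these sums was 1.06 to 1.48. Of its 192 spots 101 were positive and significant, 69 in Saos-2 and 32 in Sa/CD99, and 7 were well above background. As filed 46 of the positive spots were in Saos-2 and 55 in Sa/CD99, and the mean summed signals were 2.60 and 2.42. Its median probe ratios were 0.81 and 1.23, below those of hsa-miR-374b.

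The paralogs varied together from array to array. Over the 12 arrays the summed signals of hsa-miR-374b and hsa-miR-374a had a Pearson r of 0.91 and a Spearman rho of 0.88. No p is given for correlations across arrays, since the 12 arrays carry 4 clone or replicate numbers, each over 3 days, and same-numbered arrays deviated together. Without the 2 arrays farthest from the median, days 7 and 14 of Saos-2 replicate 2, r was 0.84. Within the 6 Sa/CD99 arrays r was 0.87 and within the 6 Saos-2 arrays 0.89. Within the slides, of 6 arrays each, it was 0.95 and 0.999. In all, 8 relations were computed. With the total signal of the array, r was 0.24 for hsa-miR-374a and 0.23 for hsa-miR-374b over all 12. Within slide 1 these were 0.63 and 0.75, and within slide 2 -0.13 and -0.15. Whether the probes of 1 paralog also bind the other was not tested.

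**Figure D4:**
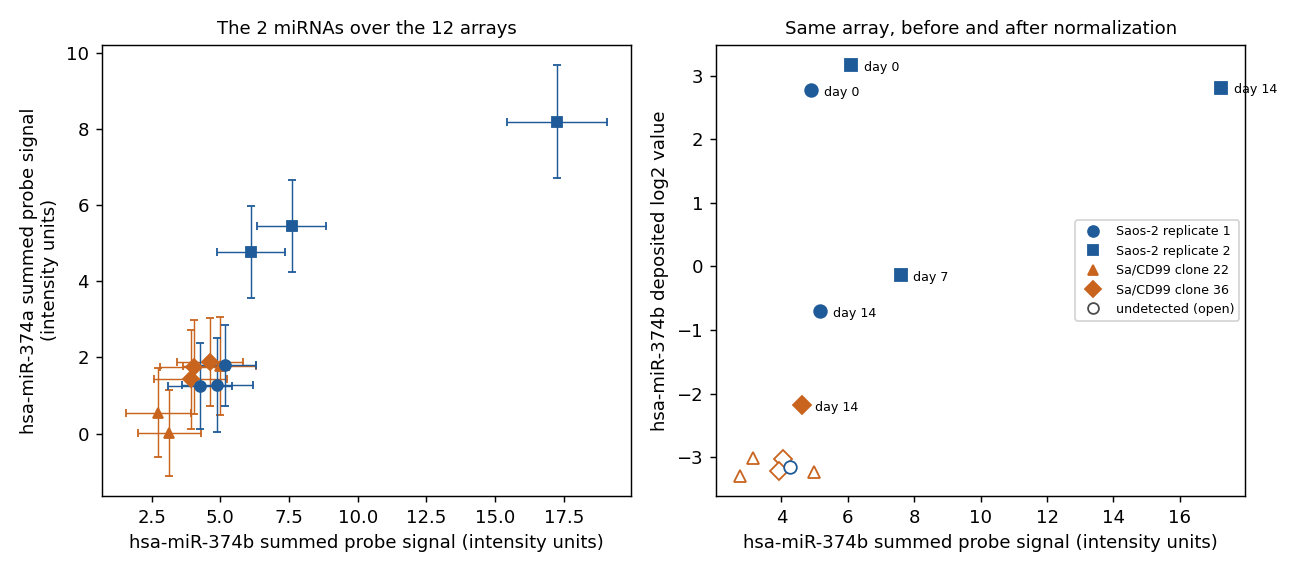
Left, summed probe signal of hsa-miR-374a against that of hsa-miR-374b (intensity units, bars are scanner errors) on the 12 arrays, r = 0.91; right, deposited log2 value of hsa-miR-374b against its summed probe signal on the matching array, open points undetected. Signals of 4.89 at day 0 and 17.3 at day 14 stand at 2.77 and 2.81 in the table.

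The cluster partners were undetected throughout. hsa-miR-421, beside MIR374B, was undetected in 12 of 12 columns, with a summed probe signal of -0.27 to 2.08 (median 0.25) and a scanner error of 1.05 to 1.37. Its highest values, 2.08 and 2.02, were on the arrays of Saos-2 replicate 2 at days 7 and 14. No probe passed the limit, the highest ratio being 1.54. hsa-miR-545, beside MIR374A, was undetected in 12 of 12 columns, with a sum of its 4 probes of -0.95 to 0.77 (median -0.08) and a highest ratio of 2.60. Of the 192 spots of each, 1 was well above background. The mean summed signal of hsa-miR-421 was 0.87 in Saos-2 and 0.14 in Sa/CD99, and as filed 0.58 and 0.43. That of hsa-miR-545 was -0.10 and 0.04, and as filed -0.25 and 0.19. These differences are smaller than the scanner error of 1 array, which is not the error of a mean of 6 arrays, and were not tested. The summed signal of hsa-miR-421 had an r of 0.73 (rho 0.53) with hsa-miR-374b and 0.84 (rho 0.64) with hsa-miR-374a. Without the same 2 arrays r was 0.09 and 0.43. Within Saos-2 it was 0.74 and 0.91, and within Sa/CD99 -0.40 and -0.12. hsa-miR-545 had an r of -0.58 (rho -0.13) with hsa-miR-374b and an r of 0.08 without those arrays. Within Saos-2 it was -0.91 and within Sa/CD99 0.04.

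The star arms hsa-miR-374a*, hsa-miR-374b* and hsa-miR-545* were likewise undetected in all 12 columns. Their summed signals reached at most 1.65, 1.47 and 1.49 intensity units. Of the arms of MIR374B, the 5′ arm alone was detected. No member was detected in the 8 columns set as the minimum for naming miRNAs of like pattern, so none is named.

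Detection was compared in the same way for the other miRNAs, by the table's titles. Of 262 miRNAs detected in any column, 5 (1.91%) were detected in at least 4 more Saos-2 than Sa/CD99 columns, hsa-miR-374b among them, and 0 in at least 4 more Sa/CD99 columns. At a margin of 3 columns the counts were 14 (5.34%), with hsa-miR-374a, and 2. Arrays as filed gave 36 and 5 at a margin of 4, and 58 and 11 at a margin of 3, with no member among them. These margins used the contrast on which the members were chosen and are given as a description.

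The change with the day averages over the cell types. hsa-miR-374b was the single member that passed the filter, detection in both columns of at least 1 group. It passed through Saos-2 at days 0 and 14, the groups in which it was high, so a test would set those groups against values largely at the floor, and its changes are described without one. Its mean log2 value in the table differed by -2.41 from day 0 to day 7. Within Saos-2, whose day 0 and day 7 arrays shared a slide, the mean went from 2.97 to -1.65 (a change of -0.86 on the matched arrays), and in Sa/CD99 both days were at the floor. Of the 219 miRNAs tested with limma, at an adjusted p under 0.05, 65 (29.7%) fell and 57 rose, with a median change of -0.53. This balance differed between settings. On the gene signals of the matched arrays, scaled by the 75th percentile, 58 rose and 17 fell, with a median of 0.07. With the filter set to miRNAs detected in all 12 columns of the table, 10 rose and 65 fell. The summed probe signal did not follow this: its mean over both cell types was 4.55 intensity units at day 0 and 5.19 at day 7. Day 0 columns also had the lowest total signal, and the part of normalization in the change was not tested. The matched arrays gave -0.50 for hsa-miR-374b, the gene signals scaled by the 75th percentile -1.59, and the arrays as filed 0.17. With single columns left out the change in the table ran from -3.16 to -1.65.

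From day 7 to day 14 the value of hsa-miR-374b differed by 1.59, and 28 of 219 miRNAs (12.8%) were called. It was 0.71 without Saos-2 day 14 replicate 2, 0.83 without Saos-2 day 7 replicate 1, and at most 2.47 with any other single column left out. The mean summed signal was 7.45 ± 6.62 (SD, n = 4) at day 14, with 17.3 on a single array. Within Sa/CD99, whose day 7 and day 14 arrays shared the other slide, the mean went from -3.22 to -2.74 through the single detected column, and on the matched arrays it changed by -0.26. The matched arrays gave 0.20, the gene signals scaled by the 75th percentile, which carry a floor, 2.57, and the arrays as filed -0.15. hsa-miR-374a, which did not pass the filter, differed by -1.06 from day 0 to day 7 and by 0.60 from day 7 to day 14 in the table. The matched arrays gave 0.05 and 0.14, the gene signals scaled by the 75th percentile -0.43 and 0.23, and the arrays as filed 0.18 and 0.16. Without Saos-2 day 0 replicate 2 the first was 0.07, and without Saos-2 day 14 replicate 2 the second was -0.35. Both values in the table came from Saos-2 replicate 2, the replicate in which it was detected.

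The course of hsa-miR-374b in Sa/CD99 and Saos-2 is likewise a description, since the members were chosen on the cell types. The difference between the cell types in the table moved by 4.41 log2 units from day 0 to day 7 and by 2.19 from day 0 to day 14. Sa/CD99 was at the floor at days 0 and 7, so the first value is the course of Saos-2 against the floor. The matched arrays gave 0.72 and -0.19, and the arrays as filed 0.64 and -0.77. Gene signals scaled by the 75th percentile, which carry a floor, gave 1.94 and 1.49. With single columns left out the first value in the table ran from 2.90 to 5.92, without replicate 1 and replicate 2 of Saos-2 day 7. The second ran from 0.43 to 3.95, without replicate 1 and replicate 2 of Saos-2 day 14. Of the 219 miRNAs tested for an interaction of cell type and day with limma 4 (1.83%) passed. Slide and group cannot be told apart in this test.

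The remaining miRNAs encoded on the X chromosome were counted without the 4 members. RefSeq placed 780 of the 851 names (91.7%), of which 84 others were on X alone, 23 of them detected in any column and 16 tested. From day 0 to day 7, 7 of the 16 fell and 4 rose, beside 65 (29.7%) that fell and 57 that rose of all 219 tested. Their median change was -1.26 against -0.53. The balance over all miRNAs turned to 58 higher and 17 lower on gene signals scaled by the 75th percentile, a setting under which the X-linked miRNAs were not counted. From day 7 to day 14, 0 rose and 1 fell, with a median of -0.26 against -0.14. Over all miRNAs tested 22 rose and 6 fell in that interval, and 0 rose and 5 fell among those detected in all 12 columns. Of the 23 detected, 13 were detected in more Saos-2 than Sa/CD99 columns, 2 in more Sa/CD99 columns and 8 equally. Over all 262 miRNAs detected in any column, the members included, these counts were 66, 43 and 153.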

How the data were processed

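The authors labelled total RNA with Cy3, hybridised it to Agilent human miRNA arrays (v3) and extracted spot intensities with Feature Extraction (10.7.3.1 per the file headers). Between arrays the deposited intensities carry no normalization. A log2 table was deposited by the authors as well, credited to RMA in the processing notes, and its handling of undetected miRNAs is not given in the sources used here. Each of its columns followed the log2 total gene signal of its matching array, with a correlation of 0.980 to 0.999 over detected miRNAs. Each column of the table was named for 1 of the 12 samples, and the conflict with the filed arrays was not settled.

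Groups followed the column titles. limma 3.58.1 on R 4.3.3 fitted 6 groups, with Benjamini-Hochberg adjustment and calls at 0.05, to 219 miRNAs detected in both columns of at least 1 group, and was first tested on simulated data. No p-value is given for a member: hsa-miR-374b passed the filter only through Saos-2 groups in which it was high, and the other members did not pass. The members and lists were chosen with earlier results of these data known. The text names the 4 members and their star arms; X-linked miRNAs are counted. Alternatives used the scanner arrays as filed, or matched to the columns, after rma-type background correction, quantile normalization and median polish, or the gene signal scaled by its 75th percentile. Others changed the filter, the floor, the threshold, the replicate block and the columns left out. The number of arrays limits the precision. Clones 22 and 36 are the same lines at each day, so their numbers pair the Sa/CD99 columns. Same-numbered columns deviated together from their group means by the table's titles (correlations of 0.41 to 0.63 in all 6 pairs of days, over 100 miRNAs) and not as filed (-0.84 to 0.17).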

Additional observations from a re-analysis of the deposited data

How the results depend on the processing

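The lower log2 value of hsa-miR-374b in Sa/CD99 was -3.78 in the table, -3.86 on gene signals scaled by the 75th percentile and -3.77 with floor values as missing, which leaves Sa/CD99 a single column. Undetected miRNAs have a gene signal of 0.1, so the scaled gene signals carry a floor as the table does. The difference was -0.63 on the matched arrays, which have no floor, and 0.23 on the arrays as filed. It was -4.57 to -3.31 in the table with each column left out. Its change from day 0 to day 7 turned to 0.17 and that from day 7 to day 14 to -0.15 as filed. The counts that follow are out of 219 tested miRNAs unless the setting changed that number. It was 213 as filed, 851 with no filter, 100 for those detected in all 12 columns and 125 with floor values as missing. A lower count is therefore not always a smaller share. The number of miRNAs called from day 0 to day 7 was 122 and became 0 as filed (limma, with 0 at an unadjusted p under 0.05), 75 on gene signals scaled by the 75th percentile, 732 with no filter, where undetected miRNAs take the floor of each column, 75 among those detected in all 12 columns, and 95 to 136 with each column left out. From day 7 to day 14 it was 28 and became 0 as filed (6 at an unadjusted p under 0.05), 9 with no filter, 5 among those detected in all 12, 4 with floor values as missing, 12 with the replicate block and 1 (without Sa/CD99 day 14 clone 22) to 77 (without Saos-2 day 7 replicate 2) with each column left out. For the interaction it was 4 and became 0 as filed (0 unadjusted), 0 among those detected in all 12 (3 unadjusted), 0 with floor values as missing (10 unadjusted), 2 with the replicate block, 13 at the threshold of the methods and 2 to 24 (without Saos-2 day 7 replicate 1) with each column left out. For the interaction the threshold of the methods was a limma unadjusted p of at most 0.01, without its fold change of 1.4. The replicate block left the day 0 to day 7 count at 137, within 1.5 times of that without it. The slide could not be fitted as a block, since each group lay on 1 slide. hsa-miR-421 and hsa-miR-545, undetected in every column, entered the counts with no filter alone. Low signal over error limits all 4 members.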
